A study of Homo sapiens with 6 samples.

Results

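The 10 genes described here encode the alpha and beta tubulins that make up most microtubules of a dividing human cell: TUBA1A, TUBA1B, TUBA1C and TUBA4A for alpha tubulin, and TUBB, TUBB2A, TUBB2B, TUBB3, TUBB4B and TUBB6 for beta tubulin. They are 10 of the 42902 Gene IDs in the deposited count table. They were taken as a family after their fold changes in these libraries were known, because the isotypes moved in both directions, so their fold changes are given as a description and without a test. RNA sequencing was done on 6 libraries labelled PANC-1, a human cell line grown from a pancreatic ductal carcinoma, with the genotype given as WT in both groups. In the 3 shNC libraries the cells carried a non-targeting hairpin, and in the 3 shRRM2 libraries they carried a hairpin that targets RRM2, the small subunit of ribonucleotide reductase, in a study that looked for genes downstream of RRM2. The labels give neither the number of hairpins or clones nor the time after transduction, nor if each library had a culture of its own. The p-values given here judge the difference between the groups against library-to-library spread, which may be technical.

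Alpha and beta tubulin are made separately, folded with the help of the prefoldin and CCT chaperones and a set of tubulin cofactors, and joined into the heterodimer that polymerises into microtubules. Human cells carry several genes, called isotypes, for each of the 2 proteins. The isotypes share a nearly constant globular body and differ most in the acidic C-terminal tail, which lies on the outside of the microtubule and takes polyglutamylation, polyglycylation and the removal or addition of a terminal tyrosine. TUBA1B, TUBA1C, TUBB and TUBB4B are broadly expressed, TUBB3 and TUBB2B are known from neurons, TUBB2A and TUBA1A are strong in brain, TUBA4A is strong in platelets and brain, and TUBB6 is known from muscle and other tissues. Cells also adjust tubulin mRNA to the amount of free dimer: when soluble tubulin is in excess, the factor TTC5 binds the first residues of a nascent tubulin chain at the ribosome and recruits SCAPER and the CCR4-NOT deadenylase, which degrades that mRNA.

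The first coding bases are shown because they encode the residues that TTC5 reads. The sequences are from the GENCODE v29 transcripts of GRCh38, written 5′ to 3′, with the first 4 codons in capitals.
TUBA1A, TUBA1B and TUBA1C: ATGCGTGAGTGCatctcc
TUBA4A: ATGCGTGAATGCatctca
TUBB and TUBB4B: ATGAGGGAAATCgtgcac
TUBB2A: ATGCGCGAGATCgtgcac
TUBB2B: ATGCGTGAGATCgtgcac
TUBB3 and TUBB6: ATGAGGGAGATCgtgcac
All 4 alpha genes start with codons for the same 4 residues, and all 6 beta genes start with codons for another shared set of 4, so the sequences within a class differ here only at synonymous bases. TUBB3 and TUBB6 have the same 18 bases, as do TUBB and TUBB4B.

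The other end of the coding sequence carries the tail by which many isotypes differ. The last 60 coding bases with the stop codon follow for the beta genes, from the same transcripts. The codons were aligned to those of TUBB with gaps allowed, and capitals mark codons with no equal partner in that alignment. Codons and not residues were compared, so capitals also mark synonymous codons and a different stop codon.
TUBB: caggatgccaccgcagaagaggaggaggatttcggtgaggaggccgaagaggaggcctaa
TUBB4B: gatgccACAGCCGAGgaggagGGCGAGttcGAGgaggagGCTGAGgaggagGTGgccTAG
TUBB2A: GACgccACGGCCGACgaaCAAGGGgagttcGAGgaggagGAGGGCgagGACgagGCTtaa
TUBB2B: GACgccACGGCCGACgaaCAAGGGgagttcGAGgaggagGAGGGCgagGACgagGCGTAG
TUBB3: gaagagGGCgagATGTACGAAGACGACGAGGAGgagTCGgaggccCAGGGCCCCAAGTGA
TUBB6: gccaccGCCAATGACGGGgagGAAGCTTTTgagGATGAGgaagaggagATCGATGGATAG
Of the 20 codons, between 10 (TUBB4B) and 14 (TUBB3) had no equal partner in TUBB in the other beta genes. These numbers are not numbers of changed residues. In these 60 bases TUBB2A and TUBB2B differ from each other only at a synonymous codon and at the stop codon. Over the whole coding sequence, identity was between 84.4% and 97.2% within the alpha genes, between 80.9% and 98.1% within the beta genes, and between 52.2% and 53.9% across the classes. The closest pair was TUBB2A and TUBB2B (98.1%), followed by TUBA1A and TUBA1B (97.2%). The proteins are 444 to 451 residues long.

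Library totals lay between 16606947 and 23300433 counts, and 15866 genes had enough counts to be tested. The targeted gene, RRM2, was counted 3567, 4435 and 3342 times in shNC but 716, 808 and 716 times in shRRM2 (log2 fold change −2.31, SE 0.0443, edgeR adjusted p = 3.72e-29). This left 20.2% of the control level. Libraries of 1 group differed by more than sampling noise (chi-square per degree of freedom 2.21 to 3.87, against 29.2 to 35.5 across groups). Of 8 genes fixed as markers of ductal carcinoma cells, 7 were tested, 5 rose and 1 fell. The labelled cell type is not matched in full by its markers: KRT19, a ductal keratin, had 0 to 6 counts per library, and CDKN2A, a tumour suppressor usually listed as absent from the PANC-1 genome, was read at 268 to 293 CPM (a gene's counts relative to the scaled size of its library).

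In the shRRM2 libraries the 4 abundant isotypes, TUBA1B, TUBA1C, TUBB and TUBB4B, were slightly lower and the 6 rarer ones, TUBA1A, TUBA4A, TUBB2A, TUBB2B, TUBB3 and TUBB6, were higher. The log2 fold changes, shRRM2 over shNC, ran from −0.20 in TUBA1B to 0.68 in TUBB2B, and none of the 10 reached a size of 1. All 10 genes passed the filter on low counts, with at least 72 counts in each library. In the fit across all genes 6 of the 10 were called higher and 3 lower at an adjusted p of 0.05, and TUBA1C was not called. Over all tested genes 26% were called higher, 26.1% lower and 52.1% in either direction. The CPM of the groups lay apart, with no overlap, in 10 of the 10 tubulins and in 57.8% of all tested genes. With library size alone in place of the scaled size, the groups overlapped in TUBA1C. The median log2 fold change was 0.27 over the 10 and −0.01 over all tested genes, and the median size was 0.30 against 0.26. Since the genes were chosen with these values known, nothing is read from the counts. In RNA from bulk cultures, fewer cells that express a gene and less RNA per cell cannot be told apart.

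**Figure D1:**
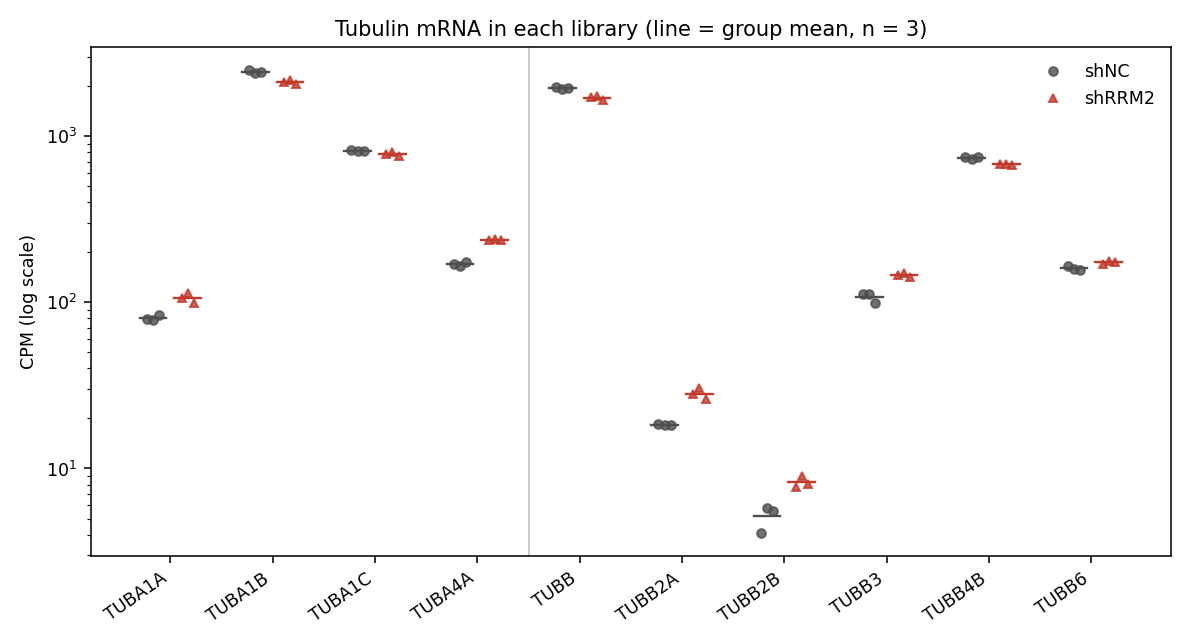
CPM (log axis) of the 10 tubulin genes in each library, with alpha isotypes to the left of the vertical line and beta isotypes to the right. Circles are shNC and triangles shRRM2 libraries, and the short lines are the means of 3. With the scaled library sizes the groups do not overlap in any of the 10 genes, and the genes above 300 CPM are lower in shRRM2 while those below are higher.

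Among the alpha isotypes, TUBA1B (Gene ID 10376, chromosome 12, 49127782 to 49131395, GRCh38), the main alpha tubulin of most cultured cells, was read at 2476, 2389 and 2437 CPM in shNC and 2111, 2172 and 2062 CPM in shRRM2. The highest shRRM2 library lay below the lowest shNC library, and the mean went from 2434 ± 43.5 to 2115 ± 55.3 CPM (SD, n = 3 each), or 0.869 of the control level. This is a log2 fold change of −0.20 (SE 0.0261). TUBA1C (Gene ID 84790, chromosome 12, 49227926 to 49274600), a widely expressed alpha isotype, had 822, 810.0 and 815 CPM in shNC and 780.4, 802 and 756 CPM in shRRM2. The groups were apart by less than 10 CPM at their nearest libraries, and the log2 fold change of −0.06 (SE 0.0284) was the smallest of the family. With library size alone in place of TMM scaling it was −0.03, and the groups overlapped. The sign of the fold change held in all settings tried. TUBA1C was called in limma-voom and without shRRM2 replicate 2 but in none of the others.

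TUBA4A (Gene ID 7277, chromosome 2, 219249710 to 219254740), the alpha isotype made without a terminal tyrosine, had 171, 166 and 174 CPM in shNC and 236, 240.1 and 238 CPM in shRRM2. The 3 shRRM2 libraries were close to each other and all above the controls, and the mean of 238 ± 1.94 CPM was 1.398 times the control mean of 170.4 ± 4.19 CPM, a log2 fold change of 0.48 (SE 0.0346). TUBA1A (Gene ID 7846, chromosome 12, 49184795 to 49189080), an alpha isotype of the developing brain that lies between TUBA1B and TUBA1C on the chromosome, had 78.9, 77.6 and 84.0 CPM in shNC and 106, 113 and 99.2 CPM in shRRM2. The lowest shRRM2 library was above the highest control, and the log2 fold change was 0.40 (SE 0.0491). TUBA1A and TUBA1B, with 97.2% of their coding bases in common, therefore differed in the sign of their change.

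Among the beta isotypes, TUBB (Gene ID 203068, chromosome 6, 30720352 to 30725422), the major beta tubulin of proliferating cells, had 1959, 1914 and 1951 CPM in shNC and 1709, 1727 and 1651 CPM in shRRM2. All shRRM2 libraries were below all controls, with means of 1941 ± 24.4 and 1696 ± 39.6 CPM (SD, n = 3 each) and a log2 fold change of −0.19 (SE 0.0260). TUBB4B (Gene ID 10383, chromosome 9, 137241287 to 137243707), a widely expressed beta isotype that is also used in cilia, had 744, 722 and 751 CPM in shNC and 679, 680.2 and 668 CPM in shRRM2. Its groups were also apart, and the log2 fold change was −0.13 (SE 0.0282).

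TUBB6 (Gene ID 84617, chromosome 18, 12307669 to 12329826), a beta isotype known from muscle and other tissues, had 166, 158 and 156 CPM in shNC and 171, 178 and 176 CPM in shRRM2. Its groups came close at 166 and 171 CPM, and its log2 fold change of 0.13 (SE 0.0370) was the smallest among the genes that were higher. TUBB3 (Gene ID 10381, chromosome 16, 89921925 to 89936097), the isotype used as a neuronal marker and often read in carcinoma cells, had 112, 113 and 98.7 CPM in shNC and 146, 149 and 142 CPM in shRRM2. The log2 fold change was 0.43 (SE 0.0444), or 1.35 times the control level, and it was 0.37 without shNC replicate 3, which had the lowest control value.

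TUBB2A and TUBB2B, a pair of neighbouring genes on chromosome 6, had the largest changes and the lowest levels. TUBB2A (Gene ID 7280, 3153666 to 3157544) had 18.4, 18.2 and 18.1 CPM in shNC and 28.1, 30.4 and 26.0 CPM in shRRM2. The log2 fold change was 0.63 (SE 0.0839). The coefficient of variation was 0.914% in shNC (323, 419 and 299 counts) and 7.77% in shRRM2 (498, 605 and 472 counts). With so few counts and 3 libraries per group, nothing is read from this difference in spread. TUBB2B (Gene ID 347733, 3224277 to 3227653) rested on 72, 134 and 92 counts in the controls against 137, 180 and 146 with the RRM2 hairpin, or 5.17 ± 0.921 against 8.28 ± 0.684 CPM (SD, n = 3 each), which is 1.60 times the control level. On the log2 scale this was 0.68 (SE 0.154). TUBB2B was the least precise of the 10: the controls varied by 17.8%, and leaving out 1 library at a time moved its fold change between 0.54 (without shNC replicate 1) and 0.78 (without shNC replicate 2).

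Several of the isotypes that were higher are used as markers of neurons, and 3 of 10 genes fixed as neuronal markers had enough counts to be tested. Of these, SNAP25, a synaptic vesicle fusion protein, was higher by 0.94 (log2, edgeR adjusted p = 8.56e-05) and INA, a neuronal intermediate filament, rose by 0.29 (adjusted p = 2.88e-05). The remaining tested marker, RBFOX3, was at −0.08 and did not pass (adjusted p = 0.872). The defining genes DCX, GAP43 and ELAVL4 were at 0 in every library, and 5 of the 10 had under 10 counts in all libraries together. The summed level of the list was 54.8 to 56.8 CPM in shNC and 67.9 to 73.7 CPM in shRRM2, most of it from INA. For motile ciliated cells 3 of 8 markers were tested and 2 rose, while CCDC39 was at −0.52 and did not pass (adjusted p = 0.0934). FOXJ1 and DNAH9 were at 0, and the sum was 17.3 to 17.7 CPM in shNC and 19.8 to 24.4 CPM in shRRM2. For platelets and their precursors 3 of 6 were tested and 1 fell, PF4, PPBP and GP9 were at 0, and the sum was 6.96 to 10.3 CPM in shNC and 6.01 to 6.50 CPM in shRRM2. The part of these markers in the tubulin values was not tested.

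Per length of exon the family was led by 4 genes in both groups. In shNC the level, in CPM per kb of exon, was 681 ± 12.2 for TUBA1B, 578 ± 7.27 for TUBB, 350.1 ± 7.01 for TUBB4B and 176 ± 1.29 for TUBA1C (SD, n = 3 each). The 6 others followed at a distance, from TUBA4A at 41.8 ± 1.03 through TUBB6 at 38.8 ± 1.22, TUBB3 at 24.3 ± 1.77, TUBA1A at 23.4 ± 0.987 and TUBB2A at 10.6 ± 0.0966 to TUBB2B at 2.35 ± 0.420. The order was the same in shRRM2, where TUBA1B was at 592 ± 15.5, TUBB at 505 ± 11.8, TUBA4A at 58.4 ± 0.475 and TUBB2B at 3.77 ± 0.312 on the same scale. In each group the only neighbours in this order whose libraries overlapped were TUBB3 and TUBA1A. The place of genes close to each other depends on the length used: with the longest transcript in place of all exons, TUBB6 (73.9 ± 2.32) lay above TUBA4A (68.2 ± 1.68) in shNC and below it in shRRM2 (80.8 ± 1.63 against 95.2 ± 0.776).

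Summed per class, tubulin mRNA was slightly lower on both sides of the heterodimer. The alpha sum was 935, 907 and 925 CPM per kb in shNC and 848, 873 and 827 in shRRM2, a log2 ratio of the means of −0.12. The beta sum was 1014, 989 and 1009.7 in shNC and 924, 935 and 901 in shRRM2, a log2 ratio of −0.13. The groups did not overlap in either sum, and both ratios follow the abundant isotypes, whose fold changes chose the family. With only the stretches of 100 bases found at no other place as the length, the log2 ratios were −0.15 for alpha and −0.09 for beta. The ratio of alpha to beta was 0.919 ± 0.00346 in shNC and 0.923 ± 0.00925 in shRRM2 (SD, n = 3 each), and the values of the groups overlapped. Together the 10 genes took 0.639% ± 0.00664 of all counts in shNC and 0.604% ± 0.0113 in shRRM2.

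Within each class the make-up moved towards the rarer isotypes. TUBA1B made up 73.8% ± 0.213 of the alpha sum in shNC and 69.7% ± 0.0543 in shRRM2, and TUBA4A 4.53% ± 0.0803 and 6.87% ± 0.154. TUBA1A went from 2.54% ± 0.0996 to 3.64% ± 0.143, so that TUBA4A and TUBA1A together took 7.07% ± 0.180 of the alpha sum in shNC and 10.5% ± 0.0400 in shRRM2. On the beta side TUBB went from 57.6% ± 0.0412 to 54.9% ± 0.269, while TUBB4B was at 34.9% ± 0.318 and 34.8% ± 0.316, with overlapping libraries. The 4 rarer beta isotypes, TUBB6, TUBB3, TUBB2A and TUBB2B, took 7.58% ± 0.288 in shNC and 10.4% ± 0.174 in shRRM2. The shares themselves rest on the length chosen. The direction of the step cannot depend on it, since in each class the rarer isotypes were all higher and the abundant ones all lower. It restates the fold changes that chose the family, and the other lengths show only its size. With the longest transcript the rarer alpha isotypes went from 9.63% to 14.1% and the rarer beta isotypes from 12.1% to 16.1%, and with only the stretches of 100 bases found in no transcript from another place in the genome they went from 4.62% to 7.01% and from 12.4% to 16.8%.

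**Figure D2:**
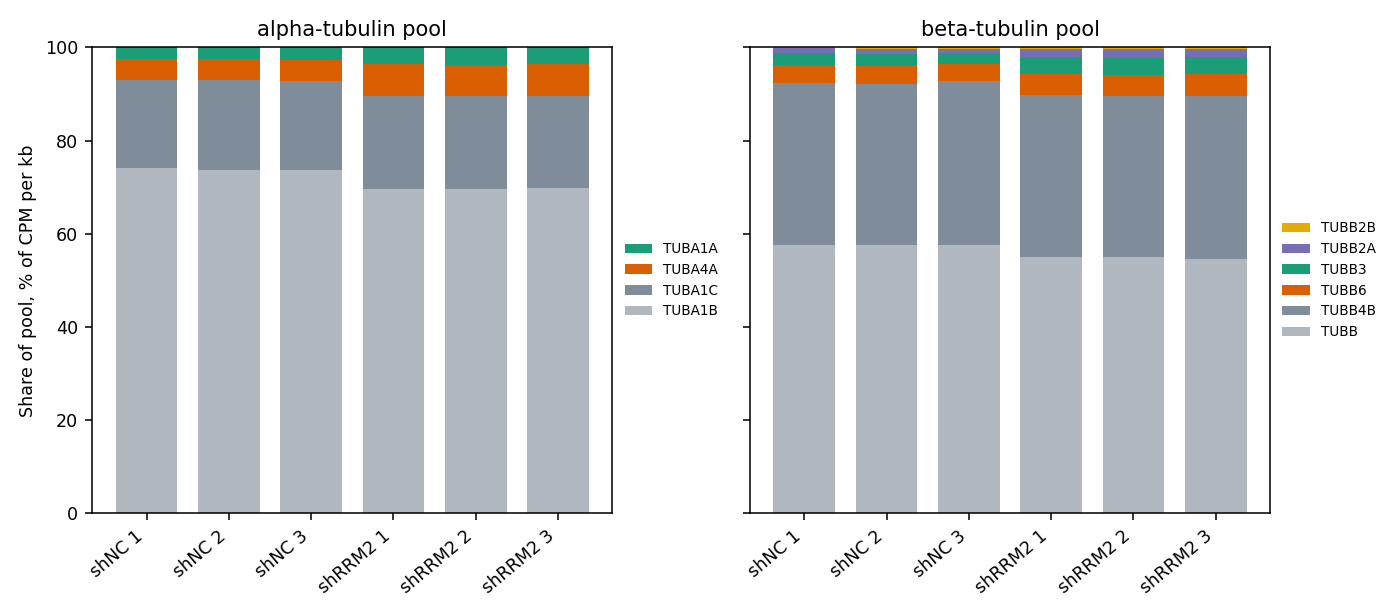
Share of each isotype in the alpha sum (left) and the beta sum (right) in each of the 6 libraries, in percent of CPM per kb of exon. The coloured bands at the top, the rarer isotypes, are wider in all 3 shRRM2 libraries (alpha 10.5%, beta 10.4% on average) than in the 3 shNC libraries (7.07% and 7.58%). The band of TUBB2B, at most 0.441%, is barely visible.

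Within the family the change went with the level. The 4 genes above 100 CPM per kb in shNC all had a log2 fold change below 0, and the 6 below 50 all had one above 0, with the rarest pair highest. Across the 10 genes the correlation of the log2 fold change with the control level was −0.92 (Spearman) and −0.95 (Pearson, log2 level). With the length of the longest transcript it was −0.95 and −0.94. The fold change and the control level come from the same shNC libraries, the genes are not independent of each other, and the genes were chosen on their fold changes, so this is a description without a test. Over all tested genes, abundant genes were also lower more often than higher: of 50 genes at 1000 CPM or more 26% rose and 58% fell (median log2 fold change −0.12), of 438 genes from 300 to 1000 CPM 26.5% rose and 52.5% fell, and of 4274 genes from 1 to 10 CPM 23.8% rose and 12.8% fell (median 0.07). Of 5274 genes from 10 to 50 CPM 26.6% rose and 28.6% fell (median −0.03). Between 50 and 300 CPM, where TUBA1A, TUBA4A, TUBB3 and TUBB6 lie, more genes fell than rose (37.7% against 28.6% from 50 to 100 CPM, 40.8% against 33% from 100 to 300 CPM). All 4 of these tubulins were higher, but they were chosen with their fold changes known, so nothing is read from this.

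**Figure D3:**
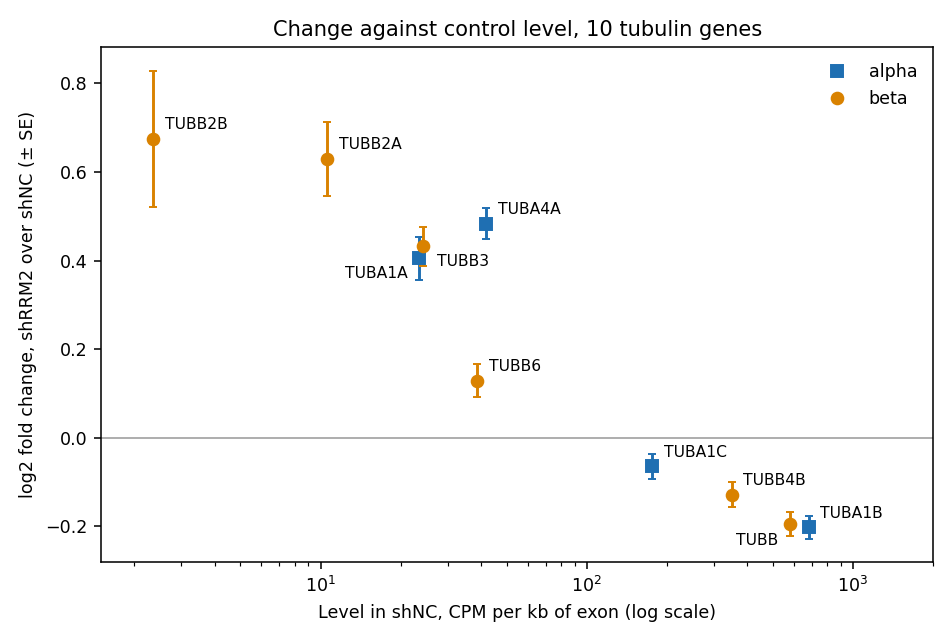
Log2 fold change (shRRM2 over shNC, with its SE) of the 10 tubulin genes against their mean level in shNC in CPM per kb of exon (log axis). Squares are alpha and circles beta isotypes. The points run from TUBB2B (2.35 CPM per kb, 0.68) at the upper left to TUBA1B (681 CPM per kb, −0.20) at the lower right.

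Tubulin genes are so alike that some reads fit more than 1 of them, and the way such reads were counted is not given in the sources used here. Of the stretches of 100 bases in the main transcript, 56.4% in TUBB2A and 46.2% in TUBB2B also occur in a transcript from another place in the genome, 37.2% in TUBA1B, 18.3% in TUBA1A and 11.5% in TUBA1C. In TUBB3, TUBB, TUBB4B and TUBA4A it was 5.15%, 5.10%, 2.86% and 1.84%, and in TUBB6 none. The levels of TUBB2A, TUBB2B, TUBA1A and TUBA1B are therefore uncertain. Genes that overlap on the chromosome add to this, since the strand setting of the count is not given either. In GENCODE v29, some of these stretches also lie in a transcript of another gene at the same place. The share was 89% in TUBB3, 65.4% in TUBA1B, 25.6% in TUBA4A, 18.6% in TUBA1C and 17.1% in TUBB. The counts, however, are given per NCBI Gene ID, and in RefSeq no other gene overlaps TUBB3, TUBA1B, TUBA1C or TUBB. The annotation release used for the counts is not given, so the part of such genes in them is not known. In RefSeq, TUBA4A overlaps STK16 (1136 counts in all libraries), which was at a log2 fold change of 0.04 (edgeR adjusted p = 0.843). TUBB6 overlaps AFG3L2 (10281 counts in all libraries), and the part of AFG3L2 in the counts of TUBB6 was not tested.

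Outside the 10 genes, more of the tested tubulin and microtubule genes fell than rose. Of 139 genes on 9 such lists, 120 were tested, and 27 rose, 49 fell and 44 did not pass. This is 63.3% called, beside 52.1% of all tested genes, with a median log2 fold change of −0.11 beside −0.01. The lists were not matched for level, and over all tested genes the calls went with level. From 10 to 50 CPM 26.6% rose and 28.6% fell, from 100 to 300 CPM 33% and 40.8%, and from 300 to 1000 CPM 26.5% and 52.5%. The excess over all tested genes is therefore not read as a trait of microtubule genes. The 19 others had at most 46 counts in all libraries together. The lists were drawn up with earlier results of these data known. The direction differed between the lists: genes that fold tubulin, nucleate microtubules or degrade tubulin mRNA were mostly lower, and genes that sever microtubules or carry cargo along them were mixed.

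**Figure D4:**
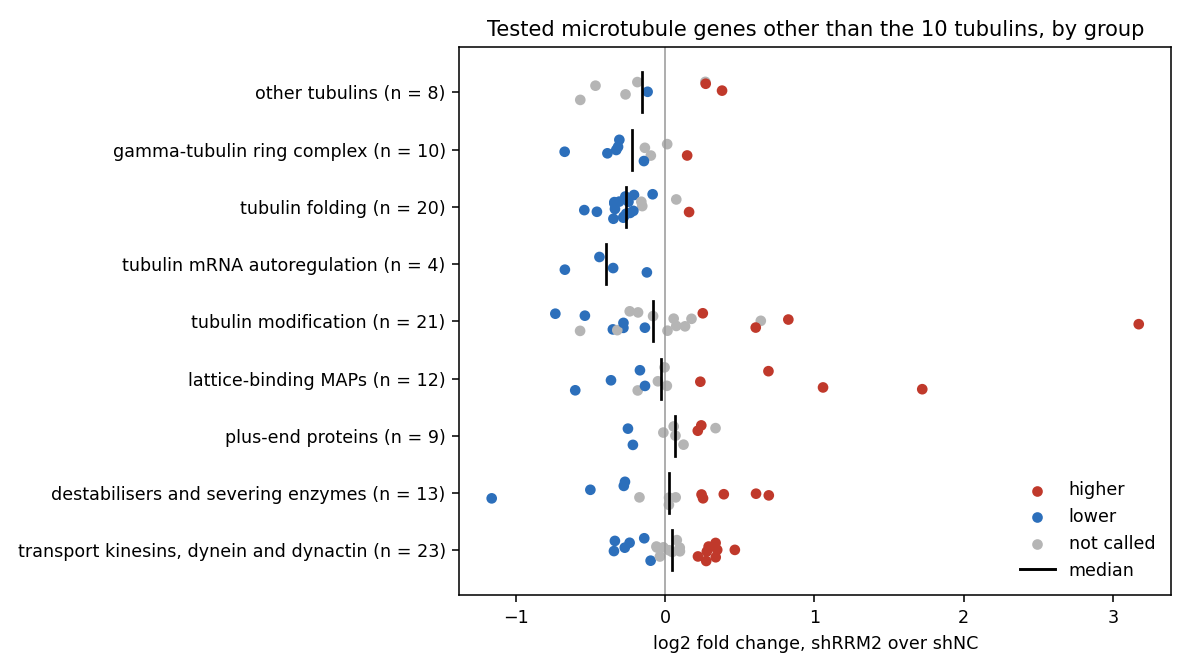
Log2 fold changes (shRRM2 over shNC) of the 120 tested microtubule genes other than the 10 tubulins, 1 row per list, with the number tested beside its name. Red points rose, blue points fell and grey points did not pass an adjusted p of 0.05, and the black bar is the median of the list. The medians of the folding and autoregulation rows lie left of 0, at −0.26 and −0.39. The modification row holds the farthest point, AGBL2 at 3.17, a gene near the floor in shNC.

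Of the 20 genes for tubulin folding, 16 fell, 1 rose and 3 did not pass, with a median log2 fold change of −0.26. All 8 subunits of the CCT chaperonin, which folds newly made tubulin and actin, fell, by 0.08 to 0.46 on the log2 scale. TCP1, the first of these subunits, fell from 369 ± 7.42 to 268 ± 12.3 CPM (SD, n = 3 each), or by 0.46 on the log2 scale (with an SE of 0.0342 and an adjusted p of 3.08e-13). CCT4, another subunit, was lower at −0.35 (SE 0.0337, adjusted p = 1.52e-10). Of the 6 subunits of prefoldin, which hands tubulin to CCT, 4 fell and 1 rose. Of the 5 tubulin cofactors, which assemble the heterodimer, 3 fell, and TBCD, the cofactor that holds beta tubulin, fell most, from 64.1 ± 2.74 to 44.0 ± 0.967 CPM (−0.54 on the log2 scale, SE 0.0561, adjusted p = 6.07e-10).

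All 4 genes of tubulin mRNA autoregulation on the list fell, with a median of −0.39. TTC5, which recognises the nascent tubulin chain, fell from 20.2 ± 2.01 to 12.6 ± 1.10 CPM (SD, n = 3 each), or by 0.67 on the log2 scale (with an SE of 0.103 and an adjusted p of 1.34e-06). SCAPER, which links TTC5 to the deadenylase, fell from 7.33 ± 0.670 to 5.38 ± 0.857 CPM (−0.44, SE 0.156, adjusted p = 0.0177). The call of SCAPER was lost without shNC replicate 1 (−0.37, adjusted p = 0.0860) and without shRRM2 replicate 3 (−0.31, adjusted p = 0.119). CNOT11, the subunit of CCR4-NOT that SCAPER binds, fell by 0.35 (adjusted p = 1.68e-08).

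The gamma-tubulin ring complex, the template from which microtubules grow, had 6 of 10 genes lower and 1 higher, with a median of −0.22. MZT1, a small subunit of the complex, fell by 0.67 on the log2 scale (with an SE of 0.0653 and an adjusted p of 1.44e-10). CDK5RAP2, which holds and activates the complex at the centrosome, was lower at −0.39 (adjusted p = 2.99e-09) and TUBGCP5, a subunit of the ring, at −0.33 (adjusted p = 0.000847). Gamma tubulin itself is counted among the 12 other tubulins, of which 8 were tested, 2 rose and 1 fell. TUBG1, its main gene, went from 179.5 ± 4.23 to 165 ± 6.57 CPM (−0.12, SE 0.0376, adjusted p = 0.00898), a call that was lost with library size alone (−0.08, adjusted p = 0.0651) and without shRRM2 replicate 3 (−0.08, adjusted p = 0.0990). TUBG2, the other gamma tubulin gene, rose by 0.27 (adjusted p = 0.00123) and TUBE1, the epsilon tubulin of centrioles, by 0.38 (adjusted p = 0.00405).

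Enzymes that modify tubulin went both ways, with 4 of 21 tested genes higher and 6 lower. TTL, the ligase that restores the terminal tyrosine of alpha tubulin, fell from 191 ± 8.81 to 157 ± 2.41 CPM (SD, n = 3 each; log2 fold change −0.28, adjusted p = 1.51e-07). The acetylation of alpha tubulin is written by ATAT1 and removed by HDAC6 and SIRT2. ATAT1 was read at 12.95 ± 1.22 and 13.6 ± 1.71 CPM and did not pass (adjusted p = 0.609), HDAC6 fell by 0.35 (adjusted p = 0.0011), and SIRT2 rose from 23.1 ± 2.16 to 40.8 ± 3.25 CPM (0.83, SE 0.0785, adjusted p = 9.16e-11). AGBL2, a carboxypeptidase that trims tubulin tails, rose from 0.204 ± 0.0484 to 1.95 ± 0.207 CPM on 120 counts in all (3.17, SE 0.437, adjusted p = 1.97e-07). It was near the floor in shNC and passed the filter on low counts only through the shRRM2 libraries, so the size of its change is uncertain. AGBL3, of the same family, was lower at −0.74 (SE 0.299, adjusted p = 0.0388), a call that was lost with the replicate number as a block (adjusted p = 0.0513), in DESeq2 (adjusted p = 0.0789), without a filter on low counts (adjusted p = 0.0555) and without shNC replicate 1 or 2 or shRRM2 replicate 1 or 3 (adjusted p = 0.0961 to 0.125). Of 7 tested TTLL genes, most of which add glutamates or glycines to the tails, 2 fell.

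Proteins that bind along the microtubule were split evenly, with 4 of 12 tested genes higher and 4 lower. MAP1B, a stabiliser known from growing axons, rose from 2.70 ± 0.0533 to 8.93 ± 1.34 CPM (SD, n = 3 each; log2 fold change 1.72, SE 0.1702, adjusted p = 2.14e-10). MAP1S, a related protein of many tissues, rose by 0.69 (adjusted p = 2.95e-13). MAP7, which recruits kinesin-1, fell from 136 ± 2.26 to 89.2 ± 4.06 CPM (−0.60, SE 0.0427, adjusted p = 8.11e-14), and MAP4, a widely expressed stabiliser, was lower at −0.17 (adjusted p = 1.30e-05). At the growing plus end, 2 of 9 tested genes rose and 2 fell. MAPRE1 (EB1), which other plus-end proteins bind, was read at 314 ± 0.720 and 312 ± 8.70 CPM and did not pass (adjusted p = 0.780), while MAPRE2 rose by 0.24, CLIP2 rose by 0.22 and CLASP1, which rescues shrinking ends, fell by 0.25 (adjusted p = 0.00261, 0.00149 and 1.10e-05).

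Among the 13 tested destabilisers and severing enzymes, 5 rose and 4 fell. STMN1, the stathmin that binds free tubulin, was read at 221 ± 10.6 and 224 ± 8.37 CPM and did not pass (adjusted p = 0.599). STMN3, another stathmin, fell from 10.99 ± 0.751 to 4.93 ± 0.794 CPM (SD, n = 3 each; log2 fold change −1.16, SE 0.144, adjusted p = 2.63e-08). Of the severing enzymes, KATNAL1 rose by 0.69 (adjusted p = 3.13e-08) and FIGN by 0.61 (adjusted p = 6.17e-05). Of the 23 tested genes for transport, 8 rose and 6 fell. DCTN1, the large subunit of the dynein activator dynactin, rose from 249 ± 11.6 to 344 ± 6.50 CPM (0.47, SE 0.0345, adjusted p = 2.21e-13), with 3 of 6 dynactin subunits higher and none lower. KIF5B, the ubiquitous kinesin-1 motor, fell by 0.24 (adjusted p = 1.92e-07), KLC4, a kinesin light chain, rose by 0.35 (adjusted p = 0.0011) and KIFAP3, which joins kinesin-2 to its cargo, fell by 0.34 (adjusted p = 0.000558).

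Promoters were compared because isotypes of 1 class moved in opposite directions. All 10 genes were in the RefSeq table of promoters (GRCh38.p14, 300 bases around a start), and 1 start was used for each of them. Other starts of these genes were not looked at. The promoters of TUBB (chr6:30720102-30720401, plus strand), which was lower, and TUBB2B (chr6:3227604-3227903, minus strand), which had the largest change, are shown 5′ to 3′ with each CCAAT and GGGCGG, on either strand, in capitals.
TUBB: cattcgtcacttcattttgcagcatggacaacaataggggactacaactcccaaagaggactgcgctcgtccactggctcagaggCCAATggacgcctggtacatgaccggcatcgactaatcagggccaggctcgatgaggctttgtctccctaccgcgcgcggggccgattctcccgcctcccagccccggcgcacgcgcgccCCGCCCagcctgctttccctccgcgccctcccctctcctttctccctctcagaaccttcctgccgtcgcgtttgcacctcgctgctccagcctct
TUBB2B: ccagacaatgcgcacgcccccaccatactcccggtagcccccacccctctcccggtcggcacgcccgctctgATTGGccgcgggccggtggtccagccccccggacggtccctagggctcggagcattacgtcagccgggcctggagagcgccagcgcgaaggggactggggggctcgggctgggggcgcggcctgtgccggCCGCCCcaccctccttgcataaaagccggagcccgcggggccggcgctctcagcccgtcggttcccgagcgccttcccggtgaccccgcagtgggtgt
Each of the 2 promoters holds 1 CCAAT and 1 GGGCGG, the letters of the CCAAT box and the GC box. CCAAT was in 5 of the 10 (TUBA1A, TUBA1C, TUBB, TUBB2B and TUBB4B) and in 34.6% of the 35116 promoters in the table, and GGGCGG in 5 of the 10 (TUBA1B, TUBA4A, TUBB, TUBB2A and TUBB2B) and in 45% of the table. Both groups hold genes that were lower and genes that were higher. TATAAA was in TUBB2A alone and in 11.5% of the table, GGAATG in TUBB4B and TUBB6 and in 14%, TGANTCA in TUBB3 and in 7.71%, and CACGTG in none of the 10 and in 7.26%. These are matches of letters on either strand and not measured sites.

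Genes next to each other on the chromosome differed in direction in 1 cluster and not in the other. TUBA1B, TUBA1A and TUBA1C are successive tested genes on chromosome 12 and had log2 fold changes of −0.20, 0.40 and −0.06. TUBB2A and TUBB2B, next to each other on chromosome 6, were both higher. These 2 genes share 98.1% of their coding bases, so reads may fit both. The part of such reads in their shared direction was not tested. Of the 14 tested neighbours that are not among the 10, 4 changed in the direction of the tubulin beside them, 3 in the other direction, and 7 did not pass. The gene on the other side of TUBB2B, PSMG4, a proteasome assembly factor, fell by 0.25 (SE 0.0893, edgeR adjusted p = 0.0197), and the one on the other side of TUBA1B, LMBR1L, fell by 0.24 (SE 0.0958, adjusted p = 0.0342).

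Across the 6 libraries, the gene whose centred log2 CPM was nearest to that of TUBA1B, among 14495 tested genes with a mean of at least 1 CPM, was TUBB, with a root mean square difference of 0.0102 on the log2 scale. WDR5, a subunit of histone methyltransferase complexes, came next (0.0144), followed by BTF3, a factor of nascent chains at the ribosome (0.0147). TUBA1B and TUBB were both chosen with their fold changes known (−0.20 and −0.19), so nothing is read from their nearness. Nearest to TUBB2B were OSR2, a zinc finger transcription factor (0.0563), the gene with Gene ID 105375112 (0.0622) and AQP1, a water channel (0.0629). These patterns are largely the difference between the groups and are given as a description.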

How the data were processed

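Polyadenylated RNA was sequenced from directional libraries, per the labels' protocols. The deposited table holds raw read counts per NCBI Gene ID, and fastp 0.23.4, featureCounts and hg38 are named in the submitters' processing notes. Aligner, annotation release, strand setting and the treatment of multimapping reads are details not given in the sources used here. Columns marked si for RRM2 were matched to the labels marked sh by gene name and number. Of 42902 Gene IDs, 40120 were matched to RefSeq (GRCh38.p14); the others held 1.25% of counts and stayed in.

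Counts were fitted with edgeR 4.0.16 in R 4.3.3 (filterByExpr defaults, TMM, robust quasi-likelihood, group alone, two-sided, all 6 libraries), with Benjamini-Hochberg adjustment over 15866 genes and a threshold of 0.05. Every adjusted p is from this fit unless another is named. The fit was tested on simulated counts. An exact permutation test of 3 against 3 cannot go below 0.1, so none was used. Library totals of 16606947 to 23300433 counts limit precision most for the rarest genes. CPM used TMM-scaled sizes, and levels per kb used the union of GENCODE v29 exons (GRCh38). Members, lists, tests and the rule for named genes were chosen with earlier results of these data known. The rule took the 3 called genes with the largest change in each list at a mean of 1 CPM or more, TUBG1, TTC5, SCAPER, TTL, HDAC6, ATAT1, STMN1, MAP4, MAPRE1 and KIF5B whatever their values, nearest neighbours, and the 3 most similar profiles for the highest and the lowest member. Markers and overlapping genes named with values were chosen after these were seen, apart from KRT19 and CDKN2A. The alternatives tried were library size alone, RLE factors, no filter, 1 CPM in 3 libraries, DESeq2 1.42.0, limma-voom (limma 3.58.1), a replicate block, other lengths, and leaving out each library. The length from stretches of 100 bases found at no other place was added after seeing the data. The ends of the alpha coding sequences are not reported here.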

Additional observations from a re-analysis of the deposited data

How the results depend on the processing

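Of 130 fold changes of the 10 tubulins under the alternatives, none changed sign and 128 moved by less than the spread between replicates (the SDs of log2 CPM of both groups combined); with library size alone TUBA4A moved to 0.52 and TUBB4B to −0.09. Of 455 values of the other genes named by rule, 439 kept their direction and their side of the threshold, 11 lost the call (TUBG1, SCAPER and AGBL3, given above) and 5 changed sign, all in genes that did not pass: MAPRE1 was at 0.0257 with library size alone. Leaving out 1 library at a time, MAPRE1 ran from −0.0286 to 0.0084 (positive without shRRM2 replicate 1), STMN1 from −0.0175 to 0.0505 (negative without shNC replicate 2, and −7e-04 without shRRM2 replicate 2) and ATAT1 from −0.022 to 0.1576 (negative without shRRM2 replicate 2). The cause was not tested. The log2 ratio of the beta sum moved from −0.1259 to −0.0881 with library size alone. Leaving out 1 library at a time gave −0.14 to −0.10 for the alpha sum and −0.14 to −0.11 for the beta sum. Of 96 counts and sums under the alternatives, 95 stayed within 1.5 times the count or, for a sum, within the combined SD of both groups. With library size alone the calls were 4625 higher and 3611 lower over all genes and 34 higher and 43 lower among the microtubule genes. The replicate numbers do not pair the libraries: the correlations of the deviations of same-numbered libraries were −0.00677, −0.00339 and −0.0208. With the replicate number as a block, 4102 genes were called higher and 4142 lower over all genes, 28 and 49 among the microtubule genes, and 6 and 3 among the 10 tubulins. Depth limits TUBB2B most, with 72 to 180 counts per library.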
